A study of Homo sapiens with 12 samples.

Results

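Epithelial and mesenchymal state genes were followed in 2 stable HEK cell lines, a human embryonic kidney cell line, as 19 of the 54675 probe sets on the array (a probe set is a group of short probes for 1 transcript). They are all probe sets that the platform annotation assigns to 10 genes alone: the keratins KRT8, KRT18, KRT19 and KRT10, vimentin (VIM), the cadherins CDH1 and CDH2, EPCAM, and the repressors ZEB1 and SNAI2. One line carried a wild-type TRPM7 channel (the WT line). The other carried the TRPM7DKD mutant, a channel without the kinase domain at its C-terminus, which the series design calls nonfunctional (the mutant line). Both transgenes were under a tetracycline switch, both lines grew with blasticidin, and each was measured untreated and after tetracycline for 72 hours. That made 4 groups of 3 arrays. The labels do not say whether a line is 1 clone or whether replicates were grown apart, and the p-values cover no more than the spread between these samples, which may be technical.

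Keratins are intermediate filament proteins that assemble as pairs of a type I and a type II chain, and KRT8 with KRT18 is the pair of simple epithelia such as kidney tubules. Vimentin builds the filaments of mesenchymal cells and of most cells in culture. In an epithelial-mesenchymal transition, repressors such as SNAI2 and ZEB1 bind short E-box motifs and switch off CDH1 (E-cadherin), keratin genes are lowered, and vimentin and CDH2 (N-cadherin) are raised. HEK cells are known to carry keratins and vimentin together.

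With tetracycline in the WT line, 3 of the 10 genes rose: KRT10, VIM and ZEB1, where 9.41% of all tested genes rose and 18% were called. Promoter sequence of these 3 genes is shown because each was called higher there, and because ZEB1 binds the E-box CAGGTG. RefSeq windows were at hand for 5 of the 10 genes (KRT8, KRT10, VIM, CDH2 and ZEB1), and the 250 bases before the start are printed 5′ to 3′ on the gene's strand with any CAGGTG or its reverse complement CACCTG in capitals.
KRT10 promoter (GRCh38.p14, chr17:40822615-40822864, minus strand): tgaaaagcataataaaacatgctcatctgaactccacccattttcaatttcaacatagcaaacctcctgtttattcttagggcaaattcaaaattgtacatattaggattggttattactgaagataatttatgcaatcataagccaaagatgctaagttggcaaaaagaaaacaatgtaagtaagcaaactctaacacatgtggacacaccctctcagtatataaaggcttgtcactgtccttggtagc
VIM promoter (GRCh38.p14, chr10:17227991-17228240, plus strand): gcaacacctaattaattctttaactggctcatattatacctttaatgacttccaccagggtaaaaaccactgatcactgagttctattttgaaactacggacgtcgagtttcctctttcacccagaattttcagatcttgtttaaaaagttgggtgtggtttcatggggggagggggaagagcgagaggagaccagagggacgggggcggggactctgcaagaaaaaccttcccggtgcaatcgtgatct
ZEB1 promoter (GRCh38.p14, chr10:31318167-31318416, plus strand): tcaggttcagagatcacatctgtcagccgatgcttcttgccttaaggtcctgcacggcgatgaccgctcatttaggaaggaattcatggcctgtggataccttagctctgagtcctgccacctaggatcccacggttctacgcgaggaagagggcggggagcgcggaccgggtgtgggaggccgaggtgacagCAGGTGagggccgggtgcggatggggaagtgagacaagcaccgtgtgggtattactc
The KRT10 and VIM windows did not contain these letters. The ZEB1 window, which belongs to the most upstream of 7 starts in the table, had CAGGTG at 57 bases before the start, and 2 of its 7 windows held the motif on either strand. Of all 35116 windows of this length 17.5% held it. A match is a description of the letters and not a binding site.

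Signals are MAS5 intensities on the log2 scale, after every array had been scaled to the same trimmed mean of 500.1. Changes are log2 differences with the standard error (SE) of 1 limma fit over all 12 arrays, with p-values adjusted by Benjamini-Hochberg over the 29553 probe sets that passed a filter on dim signal. Of the 19 member probe sets, 16 passed that filter, which asks for a group mean above 6.39. A dim second probe set of KRT19 (228491_at) and of CDH1 (201130_s_at), and the dimmest probe set of ZEB1 (239952_at), did not pass and were not tested. SNAI2 and a dim VIM probe set passed although their mean in untreated WT cells, 5.21 and 6.246, lay under the limit. With 3 arrays a group, precision is limited by their number.

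The arrays themselves differed between the lines. For beta-actin, the 3′ control signal over the 5′ one, a sign of RNA quality, averaged 1.05 ± 0.27 (log2, SD, n = 6) on WT arrays and 0.259 ± 0.026 on mutant arrays (exact permutation test, 2-sided, p = 0.00216). The same ratio for GAPDH averaged 0.0831 ± 0.063 and 0.0745 ± 0.037 (exact p = 0.779), and the 18S control signal 8.46 ± 0.8 and 6.17 ± 0.75 (exact p = 0.00216). The actin ratio did not pass between treated and untreated arrays of either line (exact p = 0.6 and 0.5, where 0.1 is the smallest possible). The median SD of a probe set was 0.299 and 0.326 in the WT groups and 0.174 and 0.19 in the mutant groups, so 1 shared spread makes p-values too small for the WT line and too large for the mutant line. TRPM7 itself was called higher at 0 of its 3 tested probe sets in either line and lower at 1 in the WT line (brightest probe set there, -0.85, limma adjusted p = 0.0643), so it does not check the tetracycline labels. Among markers of kidney lineage PAX2 and PAX8 were above the filter limit and LHX1 was not.

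**Figure D1:**
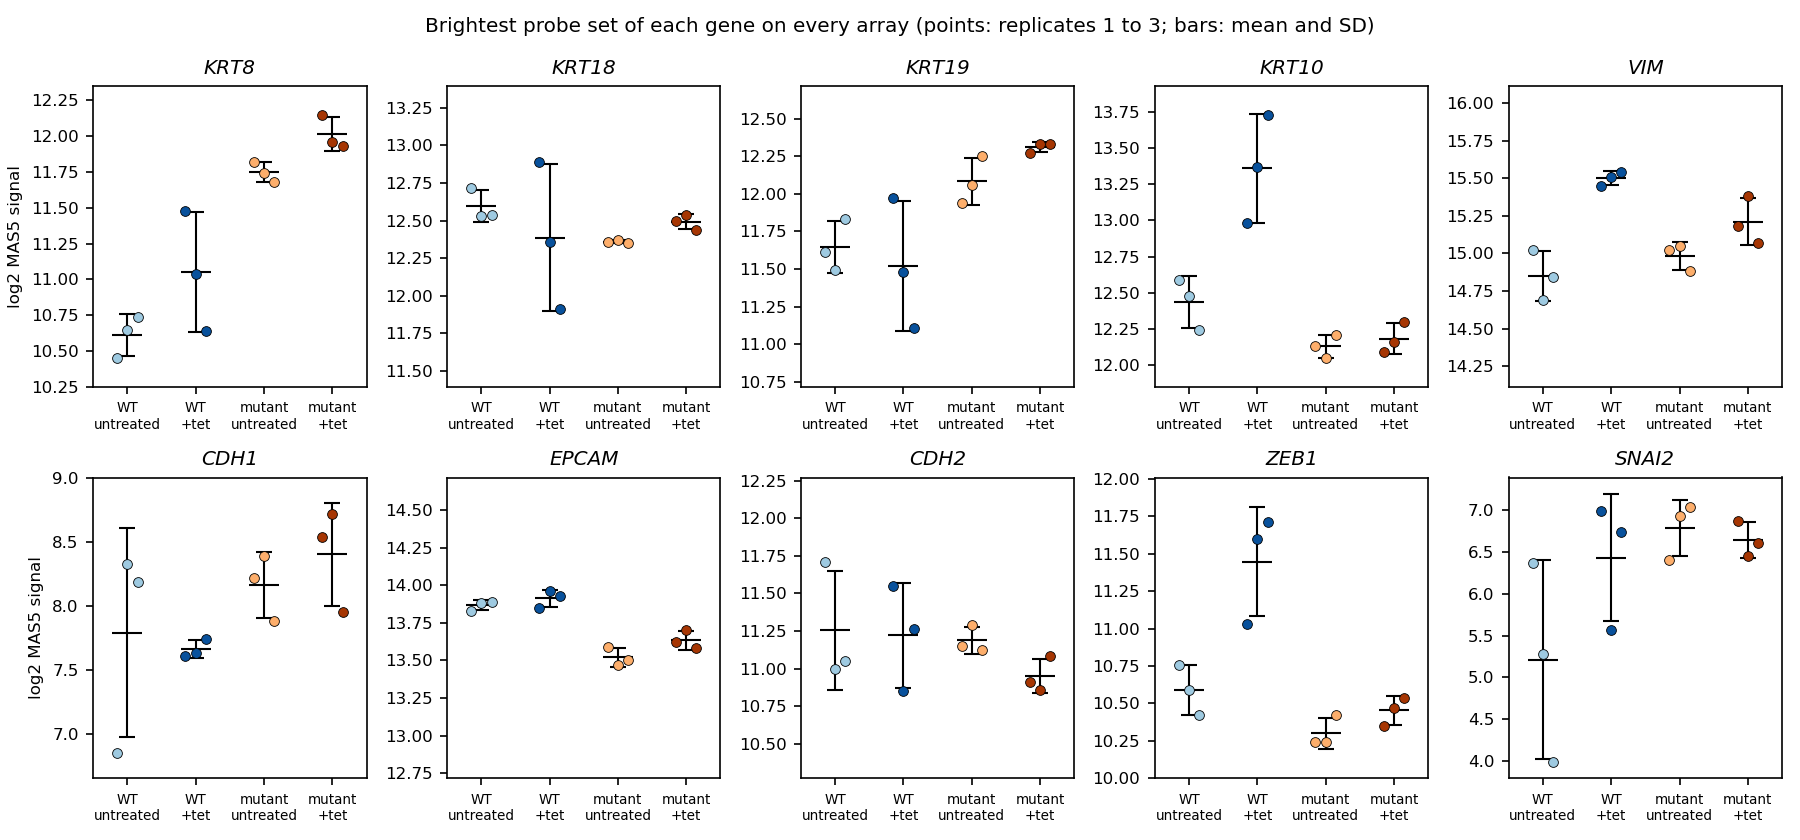
The log2 MAS5 signal of the brightest probe set of each gene is plotted for every array of the 4 groups, with the group mean and SD. KRT10, VIM and ZEB1 are highest on the 3 WT arrays with tetracycline, and KRT8 is lower on all WT arrays than on all mutant arrays; each panel has its own range, and levels are not comparable between genes.

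KRT10, a type I keratin best known from the upper layers of the epidermis, rose with tetracycline in the WT line on all 3 of its probe sets. The probe set 213287_s_at read 12.59, 12.48 and 12.24 on the untreated WT arrays and 12.98, 13.37 and 13.73 with tetracycline. On the untreated mutant arrays it read 12.13, 12.05 and 12.21, and with tetracycline 12.09, 12.16 and 12.30. The treated WT arrays were all above every other array, and the mutant groups overlapped. The change in the WT line was 0.92 ± 0.16 (SE, n = 3 against 3, limma adjusted p = 0.00183), a 1.9-fold rise. The other KRT10 probe sets rose by 1.11 ± 0.121 (210633_x_at, adjusted p = 0.000144, 2.17-fold) and 1.02 ± 0.152 (207023_x_at, adjusted p = 0.000729, 2.03-fold). In the mutant line the same probe sets gave 0.05, 0.09 and 0.19 (adjusted p = 1 each).

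VIM rose by 1.57-fold in the WT line. Its bright probe set 201426_s_at read 15.02, 14.69 and 14.84 untreated and 15.45, 15.51 and 15.54 with tetracycline. On mutant arrays it read 15.02, 15.05 and 14.88 untreated and 15.18, 15.38 and 15.07 with tetracycline. Treated arrays were above untreated ones in both lines, by a wider gap in the WT line. The change was 0.65 ± 0.103 (SE, n = 3 against 3, limma adjusted p = 0.00107) for WT cells and 0.23 ± 0.103 (adjusted p = 1) for mutant cells. The dim VIM probe set 1555938_x_at read 7.87, 5.35 and 5.53 untreated and 8.18, 8.42 and 8.32 with tetracycline on WT arrays, a change of 2.06 ± 0.573 (adjusted p = 0.0241). That call was lost when any one of WT untreated replicates 2 or 3 or WT tetracycline replicates 2 or 3 was left out (adjusted p up to 0.096).

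ZEB1, a zinc finger repressor of CDH1, rose at its bright probe set. On 212764_at it read 10.76, 10.59 and 10.42 untreated and 11.03, 11.60 and 11.71 with tetracycline in the WT line. The mutant arrays read 10.24, 10.24 and 10.42 untreated and 10.35, 10.47 and 10.54 with tetracycline. The treated WT arrays did not overlap any other group. The change was 0.86 ± 0.171 (SE, n = 3 against 3, limma adjusted p = 0.00422, 1.81-fold) for WT cells and 0.15 ± 0.171 (adjusted p = 1) for mutant cells. The dimmer ZEB1 probe sets gave 0.64 ± 0.238 (210875_s_at, adjusted p = 0.0806) and 0.55 ± 0.276 (212758_s_at, adjusted p = 0.187) in the WT line and did not pass. Without WT tetracycline replicate 1 both passed, with 0.83 (adjusted p = 0.017) and 0.94 (adjusted p = 0.00328).

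These calls were set against the rest of the array and against the noisier spread of the WT line. In the WT line 6 of the 16 tested member probe sets were called and all 6 were higher, where 16.9% of all tested probe sets were called, 7.83% higher and 9.11% lower. The treated and untreated WT arrays did not overlap for 7 of the 16, against 26.7% of all tested probe sets. In the mutant line 0 of 16 were called by limma, as 0% of all were, with 1 member and 620 of all probe sets at an unadjusted p under 0.05. There 6 of 16 did not overlap, against 13.2%. The 6 calls stand for 3 genes, and probe sets of 1 gene are not independent. With the 6 WT arrays alone in the fit, KRT10 kept its calls (adjusted p = 0.0314, 0.0124 and 0.0206), as did the bright VIM probe set (adjusted p = 0.0186), while ZEB1 had an adjusted p of 0.0508 and the dim VIM probe set 0.0746. When replicate 3 was dropped from every group, KRT10 210633_x_at and bright VIM were the 2 probe sets still called, and ZEB1 changed by 0.64 (adjusted p = 0.144). The summed signal of 6 fibroblast markers also moved with tetracycline in the WT line, from 724 to 958 untreated to 1340 to 1460, against 782 to 1000 and 940 to 1110 in the mutant line. Most of that sum is COL1A1, one of the mesenchymal genes described further on, whose mean log2 signal went from 9.349 to 10.23, while PDGFRA went from 6.406 to 6.095. The other markers, DCN, LUM, PDGFRB and COL3A1, were under the filter limit in every group. The sum of 5 kidney tubule markers went from 184 to 261 untreated to 286 to 398 in the WT line. In the mutant line that sum was 209 to 253 untreated and 178 to 275 with tetracycline. Of the 5, 2 were tested, AQP1 (1.75, limma adjusted p = 0.142) and AQP2 (-0.06, adjusted p = 0.921), and neither was called in the WT induction. The part of either sum in the result was not tested. In such bulk samples a change in the share of cells of a type and in RNA per cell cannot be told apart.

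**Figure D2:**
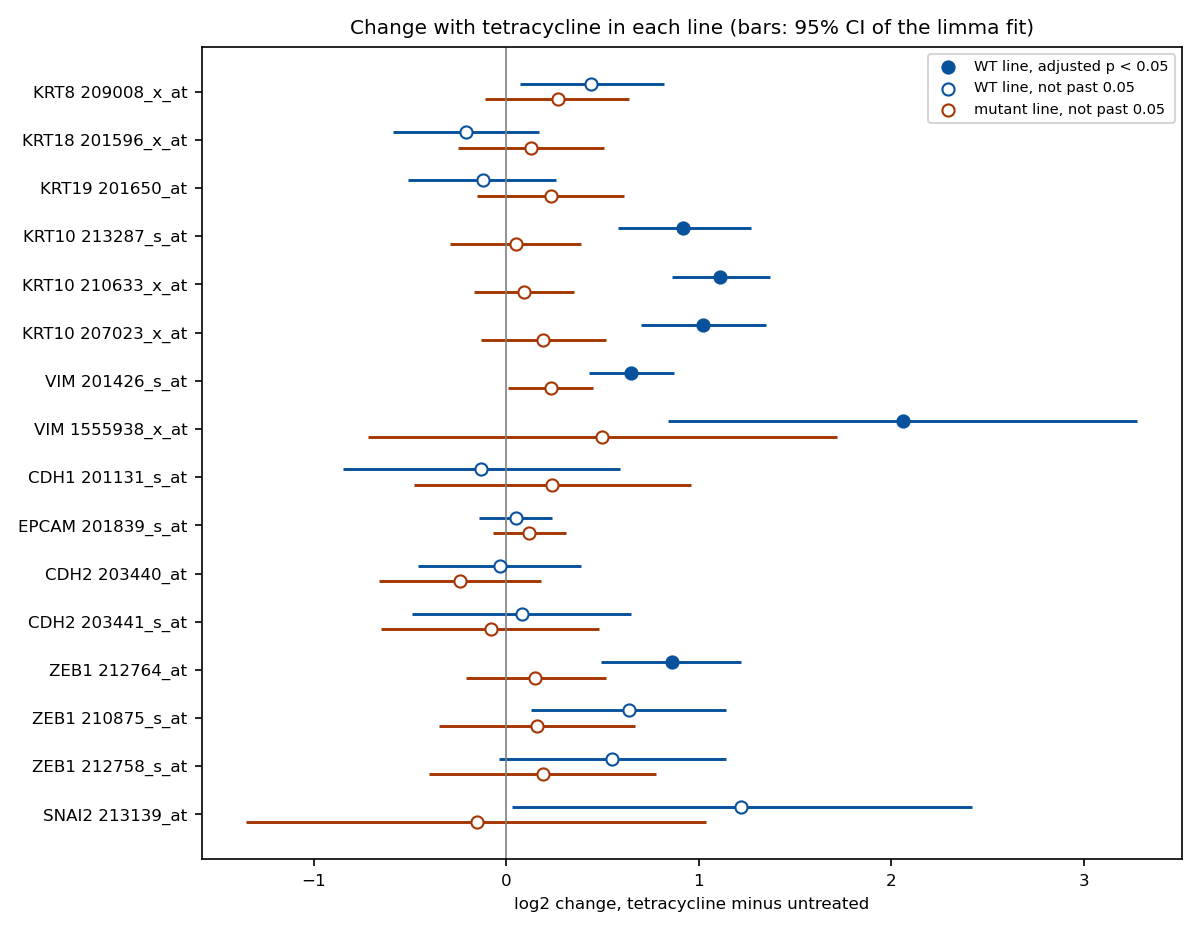
The log2 change with tetracycline is plotted for the 16 tested probe sets in the WT line and the mutant line, with 95% confidence intervals of the limma fit and filled points where the adjusted p was under 0.05. The 6 filled points belong to KRT10, VIM and ZEB1 in the WT line, and no point of the mutant line is filled.

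The keratins of simple epithelia did not pass in either line. KRT8, the type II chain, read 10.45, 10.65 and 10.74 untreated and 11.48, 11.04 and 10.64 with tetracycline in the WT line, so the groups overlapped. Its change was 0.44 ± 0.176 (95% confidence interval 0.07 to 0.82, limma adjusted p = 0.0979), and it passed when WT tetracycline replicate 3 was left out (0.65, adjusted p = 0.0192). KRT18, its type I partner, read 12.72, 12.53 and 12.54 untreated and 12.89, 12.36 and 11.91 with tetracycline, a change of -0.21 ± 0.178 (interval -0.59 to 0.17, adjusted p = 0.443). Without WT tetracycline replicate 1 the KRT18 change was -0.46 (adjusted p = 0.0167). KRT19, the smallest type I keratin, read 11.61, 11.49 and 11.83 untreated and 11.97, 11.48 and 11.11 with tetracycline, a change of -0.12 ± 0.179 (interval -0.51 to 0.26, adjusted p = 0.676). In the mutant line these 3 keratins changed by 0.27, 0.13 and 0.23 (adjusted p = 1 each), and each had its treated arrays above its untreated ones, as 6.86% of all tested probe sets did.

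The treated WT arrays differed among themselves in opposite ways for the keratins. On WT tetracycline replicate 1, KRT10 213287_s_at stood 0.55 above the untreated mean of the line and ZEB1 212764_at stood 0.44 above, while KRT8 was 0.87, KRT18 0.29 and KRT19 0.33 above it. On replicate 3, KRT10 stood 1.29 above and ZEB1 1.12 above, while KRT8 was 0.03 above and KRT18 and KRT19 stood at -0.69 and -0.54. Replicate 2 lay between them at each of these 5 probe sets, which does not hold for the dim ZEB1 probe set 212758_s_at (-0.23, 1.01 and 0.88 on replicates 1 to 3). VIM did not share this spread, with 0.60, 0.66 and 0.69. The array with the most KRT10 and ZEB1 therefore had the least of the 3 simple keratins.

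**Figure D3:**
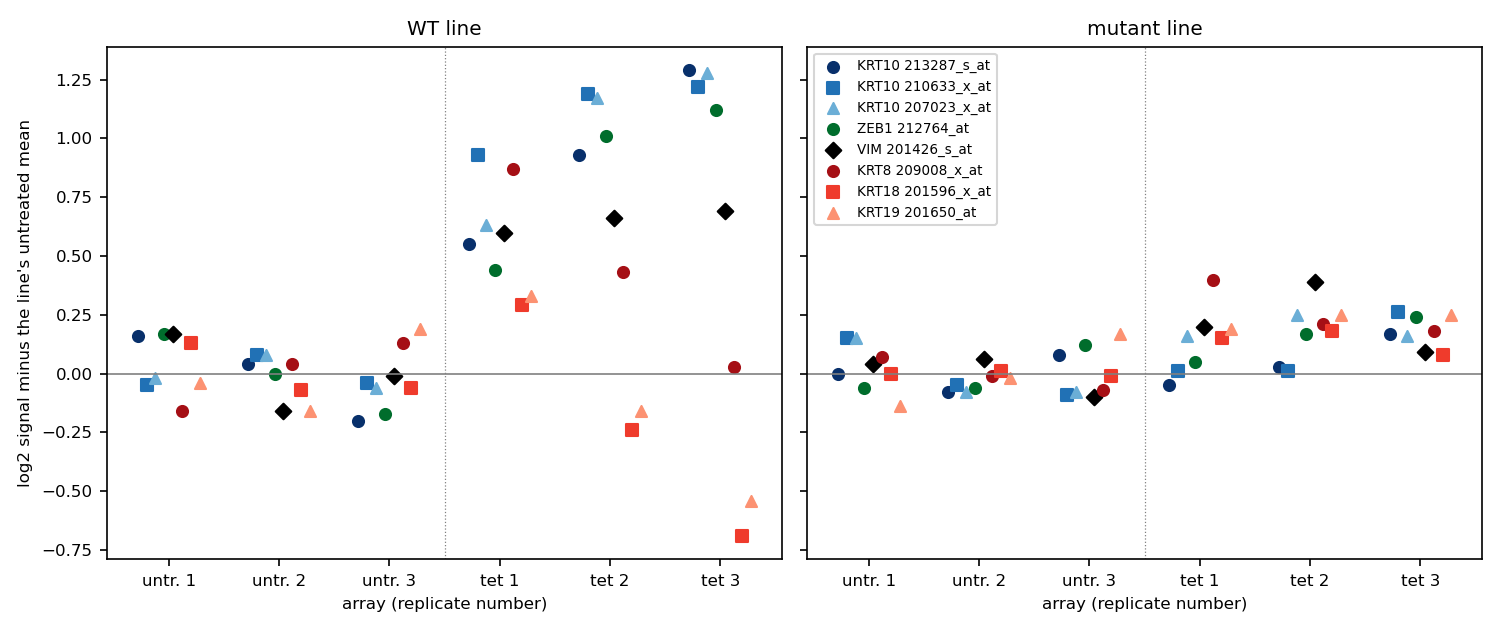
Log2 signal minus the untreated mean of the same line is plotted for 8 probe sets of KRT10, ZEB1, VIM, KRT8, KRT18 and KRT19 on each of the 12 arrays, with 1 panel per line. In the WT line the blue KRT10 points and the green ZEB1 point are lowest on array 1 among the treated arrays and the red KRT8, KRT18 and KRT19 points are highest there, with the reverse on array 3; replicate numbers have no order in time.

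The adhesion genes gave no call for tetracycline in either line. CDH1, the cadherin of epithelial junctions, read 6.85, 8.33 and 8.19 untreated and 7.61, 7.63 and 7.74 with tetracycline in the WT line. Its change was -0.13 ± 0.337 (95% confidence interval -0.85 to 0.59, limma adjusted p = 0.827), so a fall or a rise within that interval is not excluded. EPCAM, an adhesion protein of epithelial surfaces, read 13.83, 13.88 and 13.89 untreated and 13.85, 13.96 and 13.93 with tetracycline, a change of 0.05 ± 0.0878 (interval -0.14 to 0.24, adjusted p = 0.732). CDH2, the cadherin of neural and mesenchymal cells, changed by -0.03 ± 0.197 (203440_at, interval -0.46 to 0.39) and 0.08 ± 0.266 (203441_s_at, interval -0.49 to 0.65). In the mutant line the 4 tested probe sets of these genes changed by -0.24 to 0.24.

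SNAI2, the other repressor, was near the filter limit and noisy. It read 6.37, 5.28 and 3.99 untreated and 6.99, 5.57 and 6.74 after tetracycline on WT arrays, with a change of 1.22 ± 0.56 (SE, limma adjusted p = 0.15). It ranged from 0.61 to 1.8 when single arrays were left out and passed without WT untreated replicate 1 (adjusted p = 0.0414). The mutant arrays read 6.41, 6.93 and 7.04 untreated and 6.87, 6.45 and 6.61 with tetracycline, a change of -0.15 ± 0.56 (adjusted p = 1). The WT groups overlapped, and the untreated WT arrays alone spanned the range from 3.99 to 6.37.

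The mutant line received the same inducer but has its own transgene under the switch, and the groups include no line without a transgene. The difference between the 2 inductions was tested directly. One of the 16 tested probe sets passed, KRT10 210633_x_at, with a difference of 1.02 ± 0.171 (SE, limma adjusted p = 0.0407); 0.139% of all tested probe sets were called. It read 12.28, 12.41 and 12.29 untreated and 13.26, 13.52 and 13.55 with tetracycline on WT arrays, and 12.14, 11.94 and 11.91 against 12.01, 12.01 and 12.25 in the mutant line. The other KRT10 probe sets differed by 0.87 ± 0.227 (213287_s_at, adjusted p = 0.114) and 0.83 ± 0.215 (207023_x_at, adjusted p = 0.113). KRT10 210633_x_at and 207023_x_at are of the x type, whose probes can match related transcripts. ZEB1 differed by 0.71 ± 0.243 (212764_at, adjusted p = 0.21) and VIM by 0.43 ± 0.146 (201426_s_at, adjusted p = 0.209), and neither passed. The call for KRT10 was lost when any 1 array was left out other than WT untreated replicate 2 or WT tetracycline replicate 1 (adjusted p from 0.0502 to 0.157). Without WT tetracycline replicate 1, 5 member probe sets passed. They were all 3 of KRT10 with differences of 1.03 to 1.11, ZEB1 212764_at with 0.91 (adjusted p = 0.00932) and KRT18 with -0.60 (adjusted p = 0.0465). Calls rose across the whole array in that fit, to 2702 of all tested probe sets from 41 with every array kept. The added calls are therefore not particular to the member genes. On WT tetracycline replicate 1 all 3 KRT10 probe sets and ZEB1 212764_at stood closest to the untreated level among the treated WT arrays.

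The lines also differed before any tetracycline, most clearly in KRT8. Untreated WT arrays read 10.45, 10.65 and 10.74 and untreated mutant arrays 11.82, 11.74 and 11.68, a difference of -1.14 ± 0.176 (SE, WT minus mutant, n = 3 against 3, limma adjusted p = 0.00142), which is 2.2-fold lower in the WT line. No WT array, treated or not, reached the level of any mutant array. With tetracycline the difference was -0.96 ± 0.176 (adjusted p = 0.00159). KRT18 was not called between the lines, with 12.60 ± 0.11 (SD, n = 3) against 12.36 ± 0.012 untreated, a difference of 0.24 ± 0.178 (interval -0.14 to 0.62, adjusted p = 0.413), and -0.11 ± 0.178 with tetracycline. The RefSeq table lists 52 pseudogenes named after KRT8 and 68 after KRT18, and both genes are measured here by 1 probe set of the x type, whose probes can match related transcripts, so part of either signal may come from such copies. The 2 genes are neighbours on chromosome 12.

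KRT19 and EPCAM differed between the lines in opposite directions. KRT19 read 11.64 ± 0.18 (SD, n = 3) in untreated WT cells and 12.08 ± 0.16 in untreated mutant cells, a difference of -0.44 ± 0.179 (SE, limma adjusted p = 0.123). With tetracycline the levels were 11.52 ± 0.43 and 12.31 ± 0.033, a difference of -0.79 ± 0.179 (adjusted p = 0.00538, 1.73-fold lower in the WT line). EPCAM was higher in the WT line by 0.35 ± 0.0878 untreated (adjusted p = 0.018) and by 0.28 ± 0.0878 with tetracycline (adjusted p = 0.0274), and no WT array overlapped a mutant array in either state. After quantile normalization these EPCAM differences were 0.19 (adjusted p = 0.158) and 0.07 (adjusted p = 0.555) and did not pass.

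CDH1 was not called between the lines in either state, and ZEB1 was called higher in the WT line with tetracycline. Untreated, CDH1 201131_s_at read 7.789 ± 0.82 (SD, n = 3) on WT arrays and 8.163 ± 0.26 on mutant arrays, a difference of -0.37 ± 0.337 (SE, limma adjusted p = 0.514). With tetracycline it read 7.658 ± 0.074 and 8.405 ± 0.4 without overlap, a difference of -0.75 ± 0.337 that did not pass (adjusted p = 0.113). Its untested dim probe set, under the filter limit in every group, read 2.02, 2.16 and 4.48 on the treated WT arrays and 5.80, 5.81 and 5.36 on the treated mutant arrays. Untreated, that probe set read 2.53, 4.54 and 5.23 on WT arrays and 4.19, 5.93 and 5.96 on mutant arrays, which overlapped. ZEB1 212764_at was 0.99 ± 0.171 higher in the WT line with tetracycline (adjusted p = 0.00113) and 0.29 ± 0.171 untreated (adjusted p = 0.3). A second ZEB1 probe set passed with tetracycline (210875_s_at, 0.68 ± 0.238, adjusted p = 0.0463), although its groups overlapped. That call was lost without the filter (adjusted p = 0.074) and with the compared groups alone (adjusted p = 0.0705), and it held in 4 of 12 fits that left out 1 array (0.53 to 0.88). The third, 212758_s_at, pointed the other way with -0.69 ± 0.276 untreated (adjusted p = 0.118) and -0.32 ± 0.276 with tetracycline. The KRT10 probe sets were 1.16 to 1.35 higher in the WT line with tetracycline (adjusted p = 0.000262 or lower) and 0.31 to 0.33 higher untreated, without passing (adjusted p from 0.0854 to 0.231).

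VIM, CDH2 and SNAI2 were not called between the untreated lines. VIM 201426_s_at differed by -0.13 ± 0.103 (SE, limma adjusted p = 0.435) untreated and by 0.29 ± 0.103 (adjusted p = 0.0479) with tetracycline. That last value fell to 0.11 (adjusted p = 0.355) after quantile normalization. CDH2 differed by 0.07 ± 0.197 (203440_at) and -0.53 ± 0.266 (203441_s_at) untreated and by 0.27 and -0.37 with tetracycline, so its probe sets pointed in opposite directions and none passed. SNAI2 was -1.58 ± 0.56 untreated (adjusted p = 0.0768), with all WT arrays below all mutant arrays, and -0.21 ± 0.56 with tetracycline.

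Between the untreated lines 2 of the 16 tested probe sets were called, 1 in each direction, against 12.9% of all tested probe sets, 4.19% higher and 8.7% lower. The arrays did not overlap for 9 of 16, against 35.5%. Between the treated lines 9 of 16 were called, against 27.6% of all, 10.2% higher and 17.3% lower. Here 10 of 16 did not overlap, against 41.5%. The 9 belong to KRT8, KRT19, KRT10, VIM, EPCAM and ZEB1, and 7 of them were higher in the WT line. These comparisons between lines also carry the differences in the actin ratio and the 18S signal given above, and their part in them was not tested. Each line appears in its own induction and in the comparison of lines, so these values share arrays and are given side by side only.

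**Figure D4:**
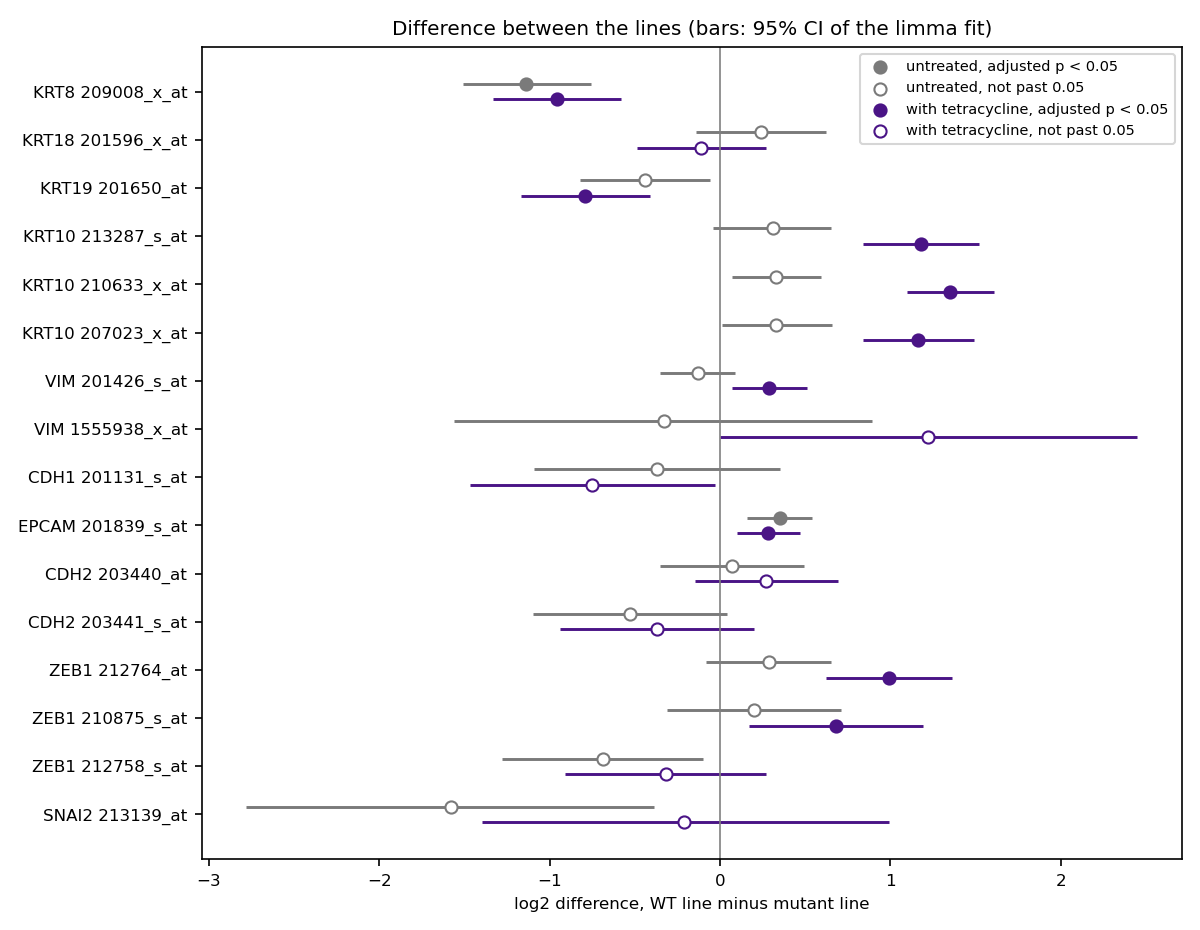
The log2 difference between the lines, WT minus mutant, is plotted for the 16 tested probe sets in untreated cells and with tetracycline, with 95% confidence intervals of the limma fit. KRT8 lies left of 0 and EPCAM right of 0 in both states with filled points, while the 3 KRT10 probe sets are filled with tetracycline alone.

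Other keratins were mostly too dim to be tested. Of 21 listed, 15 had a probe set and 2, KRT7 and KRT75, passed the filter, and neither was called in any of the 5 comparisons. KRT1, the usual type II partner of KRT10, was listed at 5.688 ± 0.56 (SD, n = 3) and 5.356 ± 0.44 in the WT line and was under the limit in all groups. Among other intermediate filaments and lamins, 2 of 10 tested genes rose in the WT line and 0 fell, where 18% of all tested genes were called and 9.41% rose. They were the neuronal filament genes INA, with 0.86 ± 0.173 (limma adjusted p = 0.00425), and PRPH, with 0.90 ± 0.239 (adjusted p = 0.0198). LMNA (lamin A/C) was called at 2 dimmer probe sets, with rises of 0.93 and 0.99. INA had been 0.77 lower in untreated WT than in untreated mutant cells (adjusted p = 0.0104).

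In the mutant induction and in the difference of the inductions limma called 0 genes of each list described here at the brightest probe set, by which listed genes are counted, where 0% and 0.145% of all tested genes were called. One dimmer probe set of CD44 passed in the difference (1.77, limma adjusted p = 0.0494).

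Desmosome genes differed between the lines in both directions. Of 11 tested desmosome and linker genes 0 were called in the WT induction by limma, where 18% of all tested genes were. Untreated, 1 was higher and 2 were lower in the WT line, where 12.7% of all tested genes were called, and with tetracycline 4 were higher and 3 lower, where 28.2% were. Desmoplakin (DSP), which anchors keratin filaments to desmosomes, read 12.99, 12.43 and 12.06 in untreated WT cells and 11.29, 11.17 and 11.45 in untreated mutant cells, a difference of 1.19 ± 0.186 (adjusted p = 0.00149). Plakoglobin (JUP), its partner in the desmosome plaque, was lower in the WT line, with 8.97, 9.36 and 9.47 against 10.28, 10.25 and 10.04, a difference of -0.92 ± 0.17 (adjusted p = 0.00377). Both differences were also called with tetracycline, at 1.24 and -1.14. Of the 4 tested other cadherins CDH3 (P-cadherin), the coding neighbour of CDH1 on chromosome 16, read 5.02, 6.88 and 3.01 in untreated WT cells and 7.53, 7.90 and 7.60 in untreated mutant cells, without overlap. Its WT mean, 4.973, lies under the filter limit, so it was tested through the mutant line alone and the size of the difference is not given. CDH24 was lower in the WT line by 1.42 on the log2 scale (limma adjusted p = 0.00488).

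Epithelial and mesenchymal genes beyond the 10 showed no single direction. Of 18 tested tight junction and epithelial genes 1 rose with tetracycline in the WT line, the polarity gene PARD3 (0.59 ± 0.156, limma adjusted p = 0.019), and 0 fell, where 9.41% of all tested genes rose and 18% were called. At dimmer probe sets PARD3 rose by 1.22 at 1 more, the splicing regulator ESRP1 rose by 1.27 at 1, and the tight junction protein OCLN fell by 1.12 at 1. Between the lines 1 of the 18 tight junction and epithelial genes was higher and 2 were lower in the WT line, in each state. Of all tested genes 12.7% were called untreated and 28.2% with tetracycline. SPINT2, an inhibitor of membrane serine proteases, was lower in the WT line untreated (-0.91 ± 0.168, limma adjusted p = 0.00389) and with tetracycline (-1.39 ± 0.168, adjusted p = 0.000147). The claudin CLDN12 was higher there, by 0.55 untreated (adjusted p = 0.049) and 0.76 with tetracycline (adjusted p = 0.00563). Of 10 tested other EMT transcription factors 0 were called in either induction by limma at the brightest probe set. In the WT induction 18% of all tested genes were. In the WT induction 2 of 9 tested probe sets of TCF3 rose, by 0.71 and 0.78, and 1 of 8 of TCF4 fell, by 2.28. Of the 10 factors TWIST2 (-1.33 ± 0.245, adjusted p = 0.00377) and TCF4 (-0.57 ± 0.143, adjusted p = 0.0186) were lower in the untreated WT line. There 0 were higher, where 12.7% of all tested genes were called. Of 11 tested mesenchymal genes 3 rose and 1 fell in the WT induction, against the same shares of 9.41% rising and 18% called. The rises were ITGA5, a fibronectin receptor chain (1.05 ± 0.173, adjusted p = 0.00134), the smooth muscle actin ACTA2 (1.03 ± 0.17, adjusted p = 0.00136) and the collagen chain COL1A1 (0.88 ± 0.196, adjusted p = 0.00748). The fall was the brightest probe set of CD44, a hyaluronan receptor, with -1.14 ± 0.315 (adjusted p = 0.0235), but the other 6 tested CD44 probe sets rose, by 0.82 to 2.0, so this gene has no single direction here. FN1 (fibronectin), named after its values were seen, was not called at its brightest probe set (0.61, adjusted p = 0.0918) and rose at 3 of its 5 tested probe sets, by 0.78 to 1.02.

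SPARC, a secreted matrix protein of mesenchymal cells, separated the lines without overlap. It read 1.26, 2.28 and 1.53 in untreated WT cells and 2.92, 4.55 and 1.81 in treated ones, against 11.14, 11.61 and 11.38 and 11.54, 11.14 and 11.71 in the mutant line. The WT means, 1.691 and 3.097, lie under the filter limit of 6.39, so the probe set was tested through the mutant line alone and the size of the difference is not given.

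**Figure D5:**
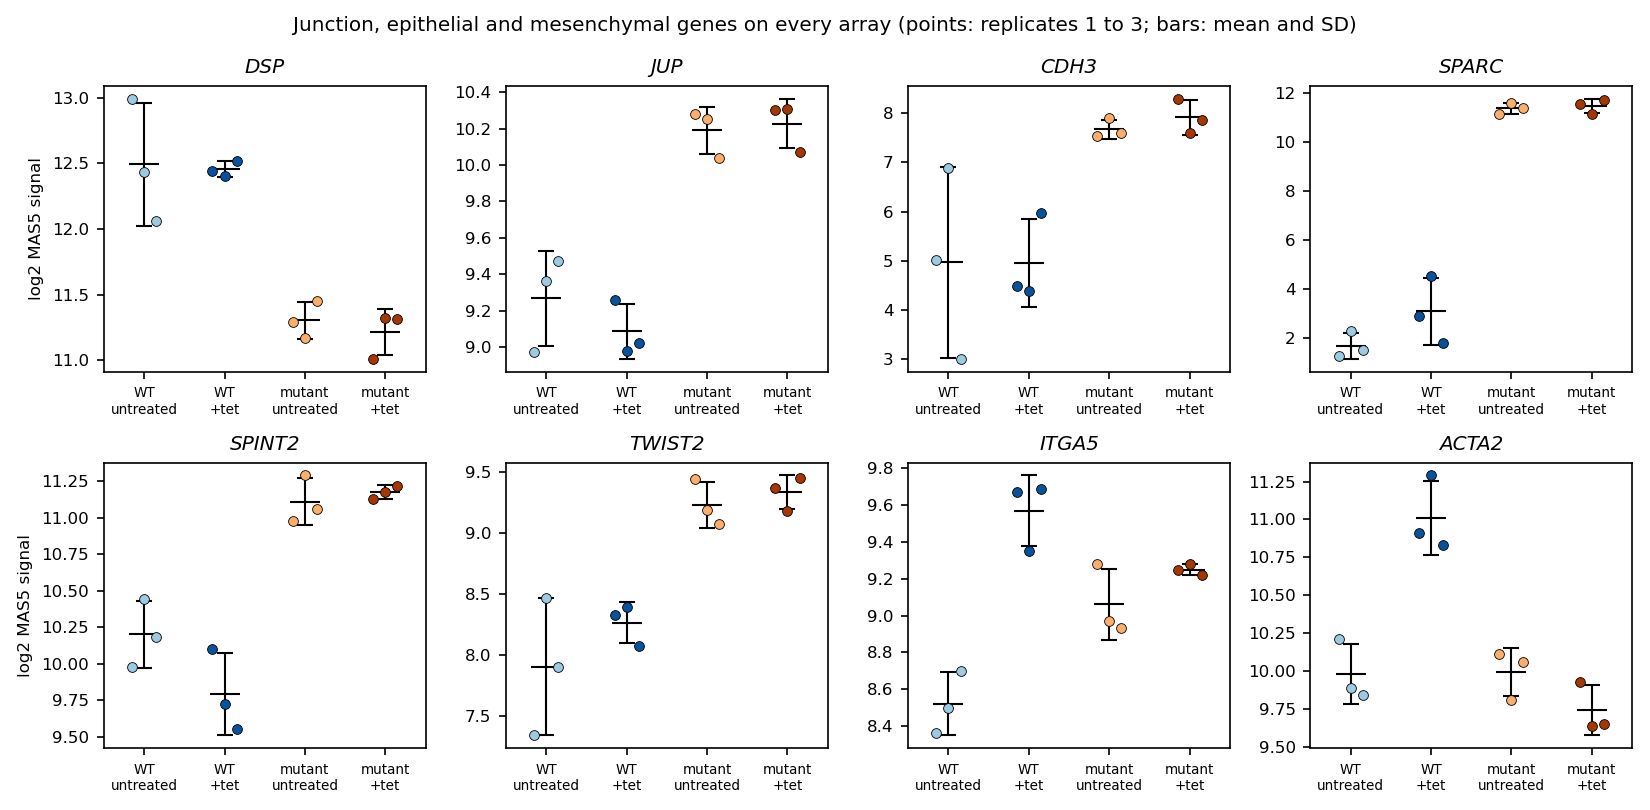
The log2 MAS5 signal of DSP, JUP, CDH3, SPARC, SPINT2, TWIST2, ITGA5 and ACTA2 is plotted for every array of the 4 groups with the group mean and SD, and each panel has its own range. DSP is higher and JUP, CDH3, SPARC, SPINT2 and TWIST2 are lower on all WT arrays than on all mutant arrays, while ITGA5 and ACTA2 are highest on the treated WT arrays.

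For 3 of the 10 members, KRT18, VIM and CDH2, the genes whose signal followed them most closely were ranked by Pearson correlation over the 12 arrays among 13066 other tested genes, as a description that includes the difference between the lines. KRT18 was followed by STX18 (r = 0.959), MRPL45 (0.938), GTF2IRD2 (0.938), MICALL1 (0.916) and MAIP1 (0.912). VIM was followed by ZNF383 (r = 0.951), ZSWIM8 (0.948), ARG2 (0.943), RABIF (0.939) and ZNF419 (0.938). CDH2 was followed by CBFB (r = 0.928), SPTY2D1 (0.907), INTS15 (0.884), PHAF1 (0.878) and RAP1B (0.875). With so many genes and 12 arrays, high values arise readily. The other 7 members were not ranked.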

How the data were processed

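Total RNA of 12 samples, extracted with Trizol and labelled with biotin per the labels' protocols, was measured on 1 Affymetrix array each. The deposited values are MAS5 signals, a linear intensity per probe set, per the submitters' processing notes; version and settings are not given in the sources used here. All arrays had a mean of 500.1 after trimming 2% at each end, so the authors had scaled them to a common mean.

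Signals below the floor of 1 were raised to it before log2. The 62 AFFX controls were kept out, and 29553 of 54675 probe sets with a group mean above the median of all values, 6.39, were tested. Symbols came from the platform annotation, updated by gene ID to RefSeq (GRCh38.p14): 41091 probe sets had 1 symbol, 1801 several and 11721 none. A gene's main probe set was the brightest over all arrays. One linear model with 4 group means was fitted with limma 3.58.1 (R 4.3.3, eBayes with trend), and calls used a 2-sided Benjamini-Hochberg adjusted p under 0.05 within each of 5 contrasts. The fit was tested on simulated data. RNA quality signs had exact permutation tests. Figures used matplotlib 3.10.9. 0 columns were left out.

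The members, lists, filter and alternatives were chosen with earlier results of these data known. Every member probe set is accounted for. From each list up to 4 called genes with the smallest p per contrast could be named, and any where 5 or fewer were called. The alternatives were no filter, a filter at 8.92, an offset of 16, quantile normalization, no variance trend, fits on compared groups alone, array weights, a block for replicate number, and dropping single arrays or all replicate 3 arrays. The labels do not say that a replicate number marks a shared culture or day, so numbers were not used as pairs. For same-numbered arrays, deviations from group means correlated at 0.0258 to 0.253 within a line and at -0.00219 to 0.0806 across lines.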

Additional observations from a re-analysis of the deposited data

Results flagged for a closer look

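The induction of KRT10 differed between the lines at probe set 210633_x_at, by 1.02 on the log2 scale (limma adjusted p = 0.0407), which was the 1 member probe set where the test of the difference itself passed. The 3 treated WT arrays were all above the 9 other arrays. This probe set is of the x type, whose probes can match related transcripts. Groups of 3 arrays are too small for a test of single outlying arrays.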

How the results depend on the processing

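Member probe sets called in the WT induction numbered 6, and 2 with all replicate 3 arrays left out. In the difference of the inductions the count was 1, against 0 without the filter, 0 without the variance trend, 0 with all replicate 3 arrays left out and 4 with array weights. For the untreated lines it was 2, against 1 without the filter, 1 after quantile normalization, 1 without the variance trend, 1 with all replicate 3 arrays left out and 4 with array weights. For the treated lines it was 9, against 5 with all replicate 3 arrays left out. It was 6 without the filter, 6 without the variance trend, 6 with the compared groups alone and 7 after quantile normalization. Leaving out 1 array gave 5 to 9 for the WT induction, 0 for the mutant induction, 0 to 5 for the difference, 1 to 6 for the untreated lines and 6 to 10 for the treated lines. With 6 WT arrays alone the WT count was 4. The mutant induction had 0 calls among members under every alternative, 1 member at an unadjusted limma p under 0.05, and 0 called of all probe sets (4 with array weights). The replicate block gave 7, 0, 1, 2 and 9 for the WT induction, the mutant induction, the difference, the untreated lines and the treated lines, the added call being ZEB1 210875_s_at (adjusted p = 0.0263). No called direction reversed. The cause of these shifts was not tested. Over all probe sets, calls in the WT induction ranged from 541 (replicate 3 arrays left out) to 8077 (without WT tetracycline replicate 1), from 5005, and were 1223 with the WT arrays alone. The difference had 41, against 8 without the filter, 6 without the variance trend, 0 without replicate 3 arrays and 2493 with array weights. The untreated lines had 3807, against 1717 without replicate 3 arrays and 4889 with array weights. The treated lines had 8151, against 2771 without replicate 3 arrays and 11651 with array weights. Leaving out 1 array gave 0 to 2702, 1621 to 5369 and 5216 to 10245 for these comparisons, in this order. Signals near the filter limit (SNAI2, the dim VIM, CDH1 and KRT19 probe sets) limit what can be shown for those genes.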

Other observations

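TGF-beta signalling genes, whose ligands are known inducers of the mesenchymal state, were on the array for 11 of 12 listed genes, and 10 were tested. One rose with tetracycline in the WT line and 0 fell, at the brightest probe set, where 9.41% of all tested genes rose. It was the ligand TGFB1, which read 8.84, 9.61 and 9.19 untreated and 9.67, 9.65 and 10.35 with tetracycline, a change of 0.68 ± 0.215 (SE, limma adjusted p = 0.043). TGFB1 was also lower in WT than in mutant cells, by 1.25 on the log2 scale untreated (adjusted p = 0.00261) and by 0.78 with tetracycline (adjusted p = 0.0156). At a dimmer probe set the ligand TGFB2 rose by 1.88 (1 of 3 tested, limma adjusted p = 0.0063). A dim probe set of SKIL, a repressor of SMAD signalling, was also called higher (1 of 3 tested). Its mean over the 12 arrays, 6.14, lies under the filter limit. It passed the filter through the treated WT group alone, so the size of its change is not given.

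Of the catenins and adherens junction genes 1 of 7 tested rose and 1 fell in the WT induction, where 18% of all tested genes were called. CTNNA1 (alpha-catenin), which links cadherins to actin, rose at 3 of its 5 tested probe sets, by 0.37 to 0.63. NECTIN2, a nectin adhesion receptor, was called at -0.54 at its main probe set and at 0.94 at another, so its direction depends on the probe set.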
